A study of Mus musculus with 18 samples.

Results

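The B cell and MHC class II genes Cd79a, Cd79b, Ms4a1, Blk, Cd74, H2-Aa, H2-Ab1, H2-Eb1 and Zbtb46, which T cells are not known for, were followed probe by probe on 18 Illumina BeadChip arrays of sorted mouse T cells to gauge RNA of B cells or antigen-presenting cells. All probes that the platform table gives to these 9 genes were taken, 15 of the 46237 probes on the array, for 8 of the genes, out of 21946 genes named there. No probe was named for Cd79a. Of the 15 probes, 12 for 7 genes were detected (detection p under 0.05) on at least 3 of 18 arrays and were tested. The other 3, the Ms4a1 probe and 2 of 3 Blk probes, were detected on 0 arrays.

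The cells came from female C57BL/6 mice with the Foxp3-GFP-DTR-CD90.1 genotype, which all groups share, given 50000 B16F10 melanoma cells under the skin and sampled at a tumour diameter near 10 mm. The 6 groups, with 3 arrays each, were Treg (sorted as CD4+CD25+Foxp3+), Tconv (CD4+Foxp3-) and CD8 T cells from B16 melanoma, and the same 3 cell types from spleen. Every sort excluded CD11b+ cells, and the labels name no gate against B cells. Cells were pooled before sorting, and nothing says that the replicates came from separate animals, so p-values measure only the spread between these samples. BeadChips 1, 2 and 3 each carried 1 array of every group, and samples with the same replicate letter shared a BeadChip, so that a BeadChip and a replicate preparation cannot be told apart. Each group lay at the same position on every BeadChip, so group and position cannot be told apart either. The sorted identities showed in their markers: Foxp3 probe ILMN_1225330 averaged 9.25 in tumour Treg and 8.34 in spleen Treg on the log2 intensity scale and 4.16 to 4.28 in the other groups, while the other 3 Foxp3 probes did not separate Treg. Between 38 and 45.2% of all probes were detected on an array, and mean signals of an array ran from 117 to 156 intensity units.

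MHC class II molecules display peptides from taken-up proteins to CD4+ T cells and are made mainly by B cells, dendritic cells and macrophages. H2-Aa and H2-Ab1 encode the alpha and beta chains of the mouse I-A molecule, H2-Eb1 encodes the beta chain of I-E, and Cd74 encodes the invariant chain that escorts class II molecules through the cell. C57BL/6 mice make no I-E protein because the gene of its alpha chain is defective, but H2-Eb1 is still transcribed. Cd79a and Cd79b encode the signalling chains of the B cell receptor, Ms4a1 encodes CD20, Blk is a Src family kinase of B cells, and Zbtb46 is a transcription factor of classical dendritic cells. In mouse, resting T cells make little or no class II, whose transcription depends on the coactivator Ciita acting at a conserved set of promoter elements, the X, X2 and Y boxes.

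The promoters of H2-Aa and H2-Eb1 are shown because no other class II member had a matched promoter window. RefSeq promoter windows on GRCm38.p6 were matched for 4 of the 9 genes (Cd79a, H2-Aa, H2-Eb1 and Zbtb46). Each window runs 5′ to 3′ on the strand of its gene and is 300 bases long, and capitals mark matches to the letters GCAACT (core of the X box), TGACGTCA (X2 box) and CTGATTGG (Y box), searched on both strands with overlaps allowed. The first lies at chr17:34287774-34288073 on the minus strand and the second at chr17:34305617-34305916 on the plus strand.
H2-Aa: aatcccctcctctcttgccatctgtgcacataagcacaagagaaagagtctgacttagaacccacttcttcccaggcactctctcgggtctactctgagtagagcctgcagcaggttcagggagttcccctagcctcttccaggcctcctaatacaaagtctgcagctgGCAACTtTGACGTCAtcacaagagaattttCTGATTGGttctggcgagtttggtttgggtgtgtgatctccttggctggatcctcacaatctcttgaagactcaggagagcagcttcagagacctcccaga
H2-Eb1: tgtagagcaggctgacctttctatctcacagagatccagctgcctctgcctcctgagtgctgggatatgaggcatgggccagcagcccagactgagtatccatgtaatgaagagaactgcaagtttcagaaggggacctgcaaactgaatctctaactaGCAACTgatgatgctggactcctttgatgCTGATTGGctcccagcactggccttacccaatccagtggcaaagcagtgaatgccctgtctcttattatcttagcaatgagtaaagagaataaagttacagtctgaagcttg
In H2-Aa the X core ended 76 bases, the X2 letters 67 bases and the Y box 44 bases before the start site, none overlapping another. In H2-Eb1 the X core ended 86 bases and the Y box 55 bases before the start site, and the X2 letters were not in this window. Of 32851 windows of this length in the RefSeq table, 10.9% held GCAACT, 1.79% TGACGTCA and 4.1% CTGATTGG, and 0.466% held both the X core and the Y box. These matches describe letters and not binding.

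Class II RNA was detected in all 6 groups, and for 5 of its 8 probes the array of BeadChip 1 was the highest in every group. H2-Ab1 probe ILMN_1226525 had log2 levels on BeadChips 1, 2 and 3 of 8.63, 7.35 and 7.35 in tumour Treg, 7.45, 6.63 and 5.91 in tumour Tconv and 7.39, 6.96 and 6.61 in tumour CD8 cells. The spleen arrays had 8.16, 5.27 and 4.99 in spleen Treg, 8.81, 5.95 and 4.88 in spleen Tconv and 7.90, 5.47 and 4.29 in spleen CD8 cells in the same BeadChip order. On BeadChip 1 all 6 arrays were high and the tissues overlapped, whereas on BeadChips 2 and 3 every tumour array lay above the spleen array of the same cell type. H2-Ab1 probe ILMN_2913716 gave 7.74, 6.56 and 6.45 in tumour Treg, 6.72, 5.97 and 5.55 in tumour Tconv and 6.54, 6.05 and 5.92 in tumour CD8 cells. Its spleen values were 7.26, 5.06 and 5.23 in spleen Treg, 7.70, 5.26 and 5.30 in spleen Tconv and 7.66, 5.21 and 5.14 in spleen CD8 cells. The same split appeared: on BeadChips 2 and 3 all 6 tumour arrays were above all 6 spleen arrays, and on BeadChip 1 the spleen Tconv and spleen CD8 arrays were above their tumour counterparts. The last H2-Ab1 probe, ILMN_2631423, gave 7.83, 6.36 and 5.45 in tumour Treg, 6.52, 5.49 and 4.61 in tumour Tconv and 5.50, 5.17 and 4.16 in tumour CD8 cells. Its spleen levels were 6.60, 5.63 and 4.84 in spleen Treg, 7.66, 5.71 and 4.63 in spleen Tconv and 6.57, 4.11 and 4.62 in spleen CD8 cells. Here too BeadChip 1 was highest in every group, and the tissues overlapped in each cell type.

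For H2-Aa, probe ILMN_2734729, the levels on BeadChips 1, 2 and 3 were 6.95, 5.23 and 4.49 in tumour Treg, 6.02, 5.16 and 4.40 in tumour Tconv and 5.88, 4.82 and 5.19 in tumour CD8 cells. The spleen levels were 6.59, 4.48 and 4.38 in spleen Treg, 6.95, 4.58 and 4.15 in spleen Tconv and 7.37, 5.22 and 4.79 in spleen CD8 cells. All 6 arrays of BeadChip 1 exceeded all 12 of the others. The H2-Eb1 probe ILMN_1239102 had 6.07, 5.16 and 4.79 in tumour Treg, 5.34, 4.64 and 4.25 in tumour Tconv and 5.43, 5.41 and 4.33 in tumour CD8 cells. In spleen it had 6.41, 4.51 and 4.42 in spleen Treg, 6.46, 5.01 and 4.28 in spleen Tconv and 6.65, 5.71 and 4.49 in spleen CD8 cells. Its order of groups on BeadChip 1 put the 3 spleen arrays above the 3 tumour arrays, and its lowest values sat close to 4.25, the highest of the per-array lowest detected levels (4.2 to 4.25).

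For Cd74, the invariant chain, tumour Treg had the highest group mean on each of its 3 probes. Probe ILMN_1221817 had 9.24, 8.27 and 7.82 in tumour Treg, 6.53, 6.13 and 5.32 in tumour Tconv and 6.50, 5.79 and 7.12 in tumour CD8 cells. In spleen it had 8.62, 6.97 and 6.28 in spleen Treg, 8.30, 5.61 and 4.92 in spleen Tconv and 9.20, 7.48 and 4.93 in spleen CD8 cells. The 3 tumour Treg arrays lay above all arrays of tumour Tconv and tumour CD8 cells, and the spleen groups spread widely. The second Cd74 probe, ILMN_3089584, gave 9.09, 8.12 and 7.41 in tumour Treg, 7.01, 7.78 and 5.50 in tumour Tconv and 6.82, 5.69 and 6.73 in tumour CD8 cells. Its spleen levels were 8.18, 6.74 and 6.28 in spleen Treg, 8.37, 5.93 and 4.99 in spleen Tconv and 8.56, 6.73 and 4.30 in spleen CD8 cells. Tumour Treg lay above tumour CD8 cells on every array of this probe but overlapped tumour Tconv, whose BeadChip 2 array was high. The other Cd74 probe, ILMN_1247832, lay close to background, with 5.51, 5.10 and 4.92 in tumour Treg, 4.78, 4.19 and 4.51 in tumour Tconv and 4.16, 4.61 and 4.14 in tumour CD8 cells. Its spleen levels were 5.30, 4.38 and 4.20 in spleen Treg, 4.72, 4.20 and 4.10 in spleen Tconv and 5.28, 4.13 and 4.11 in spleen CD8 cells. It was detected on 10 of 18 arrays, tumour Treg being the only group in which all 3 were detected.

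**Figure D1:**
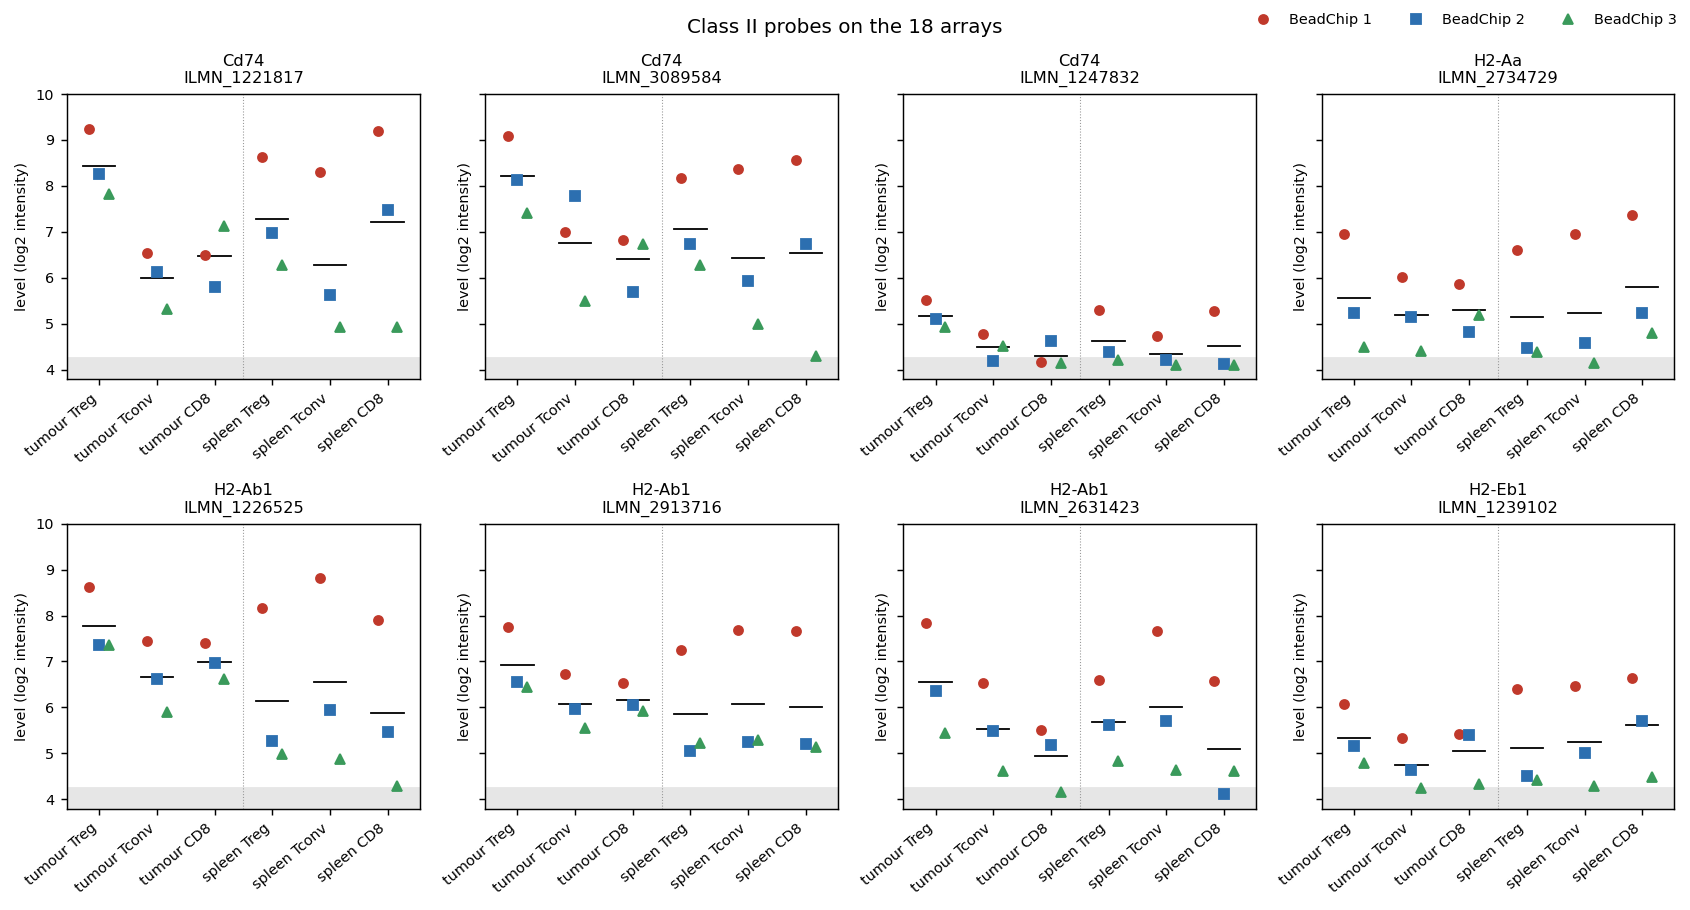
Log2 intensity (vertical axis) of the 8 class II probes in the 6 groups, with 1 point per array shaped and coloured by BeadChip and a line at the group mean of 3 arrays; the grey band ends at 4.25, the highest of the arrays' lowest detected levels. BeadChip 1 (circles) is the highest point in all 6 groups for the 5 probes of H2-Aa, H2-Ab1 and H2-Eb1, and in 5 of 6 groups for the 3 Cd74 probes.

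Tumour Treg was compared with spleen Treg, tumour Tconv and tumour CD8 cells to ask whether class II RNA differed between sorted populations. In limma's fit of all 18 arrays, adjusted over 27474 probes by Benjamini-Hochberg, none of the 8 class II probes passed in any of the 3 comparisons, although all 8 had higher means in tumour Treg in each. The median difference of tumour Treg over spleen Treg was 0.96 on the log2 scale, against -0.01 over all probes, and 0 of 8 had an unadjusted p under 0.05. Over tumour Tconv the median was 0.92, and over tumour CD8 cells 0.83, with 1 of 8 at an unadjusted p under 0.05 in each. The widest was Cd74 ILMN_1221817 over tumour Tconv, 8.44 ± 0.73 in tumour Treg and 5.99 ± 0.62 in tumour Tconv (mean ± SD, n = 3 arrays each), a difference of 2.45 ± 0.98 (SE; limma adjusted p = 0.315) that was positive on all 3 BeadChips. Over tumour CD8 cells the widest difference was 1.97, and the probe with an unadjusted p under 0.05 was Cd74 ILMN_1247832 (0.87, limma adjusted p = 0.226). H2-Ab1 ILMN_2631423 is named because it passed in that comparison with BeadChip as a block (limma adjusted p = 0.0206). It averaged 6.55 ± 1.20 in tumour Treg and 4.94 ± 0.70 in tumour CD8 cells (SD, n = 3 each), a difference of 1.60 ± 0.84 without the block (SE, limma adjusted p = 0.455).

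Among the 12 member probes, 1 passed for tumour Treg over spleen Treg, where 2.11% of all probes did, 1 for tumour Treg over tumour Tconv (2.25%) and 1 for tumour Treg over tumour CD8 cells (3.38%). In each case that probe was Zbtb46, which passed the detection filter only through the 3 tumour Treg arrays, so that nothing is read from these counts. Tumour Tconv against spleen Tconv gave 0 of 12 in limma (0.91% of all probes; 1 member at an unadjusted p under 0.05). Tumour CD8 against spleen CD8 cells gave 1, a Cd79b probe (0.863%), and tumour against spleen averaged over the 3 cell types gave the same probe (4.18%). The remaining contrasts within a tissue gave 0 of 12 in limma: spleen Treg against spleen Tconv (1.29%; 1 at an unadjusted p under 0.05), tumour CD8 against tumour Tconv (0.379%; 0), spleen CD8 against spleen Tconv (0.644%; 1) and spleen Treg against spleen CD8 cells (2.16%; 0). Whether the tissue difference itself differed between cell types was tested as a difference of differences, with 0 of 12 called in limma for Treg minus Tconv (0.12%; 1 at an unadjusted p under 0.05), for CD8 minus Tconv (0.0182%; 0) and for Treg minus CD8 (0.175%; 1). All 8 class II probes were positive for Treg minus Tconv (median 0.94) and for Treg minus CD8 (median 0.90). On BeadChips 1, 2 and 3 the Treg minus CD8 medians were 1.72, 0.81 and 0.24, with 8, 7 and 5 of 8 positive. For Treg minus Tconv they were 1.65, 0.78 and 0.63, with 8, 7 and 7 of 8 positive. The 8 probes are of 4 genes and moved together over the arrays (r of 0.67 to 0.95), so they are not separate results.

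The sign of the tissue difference in class II depended on the BeadChip. Averaged over the 3 cell types, tumour minus spleen was negative for all 8 class II probes on BeadChip 1 (median -0.61), positive for 7 of 8 on BeadChip 2 (median 0.46) and positive for 8 of 8 on BeadChip 3 (median 0.57). For H2-Ab1 ILMN_1226525 the 3 values were -0.47, 1.42 and 1.90. Over all 18 arrays this probe averaged 7.14 in tumour and 6.19 in spleen, a difference of 0.95 ± 0.60 (SE) that did not pass (limma adjusted p = 0.519).

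**Figure D2:**
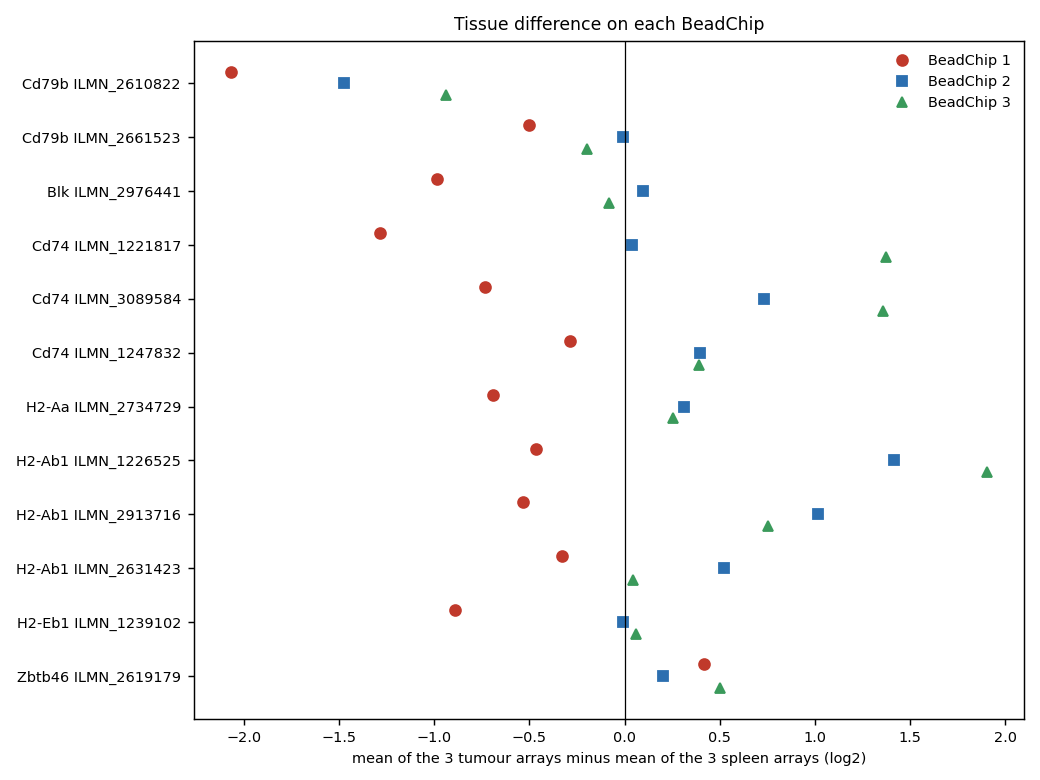
Mean of the 3 tumour arrays minus mean of the 3 spleen arrays on each BeadChip (horizontal axis, log2), for the 12 tested probes (rows), with 1 point per BeadChip. All 8 class II probes lie left of 0 on BeadChip 1, while on BeadChip 3 all 8 lie right of it; Cd79b ILMN_2610822 lies left of 0 on all 3.

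With BeadChip 1 left out, which was chosen after its values were seen, 2 of 8 class II probes passed for tumour against spleen averaged over the cell types, where 2.7% of all probes did. H2-Ab1 ILMN_2913716 was higher in tumour by 0.88 ± 0.10 (SE; limma adjusted p = 0.00223) and ILMN_1226525 by 1.66 ± 0.26 (limma adjusted p = 0.0121), over 2 arrays in each group. In tumour Treg over spleen Treg, ILMN_2913716 differed by 1.36 ± 0.17 (limma adjusted p = 0.00869), the 1 of 12 member probes called where 0.957% of all probes were. Tumour Tconv against spleen Tconv then had 0 of 12 called in limma (0.51%; 1 at an unadjusted p under 0.05), tumour CD8 against spleen CD8 cells 0 of 12 (0.48%; 3), tumour Treg against tumour Tconv 0 of 12 (1.04%; 6), and tumour Treg against tumour CD8 cells 0 of 12 (2.11%; 4). Macrophage and monocyte markers moved the same way in those 12 arrays: 8 of 15 tested genes were higher in tumour and 0 lower, with a median difference of 1.52, and 0 of 14 B cell markers passed in limma (median -0.11; 2 at an unadjusted p under 0.05). Their part in the H2-Ab1 difference was not tested.

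BeadChip 1 was therefore set against BeadChips 2 and 3 within each tissue, a comparison added after the values were seen. In this and the later BeadChip tests, arrays of different cell types on a BeadChip served as its replicates. The SE and p-values therefore measure spread between arrays, not between BeadChips or replicate preparations, of which BeadChip 1 is only 1. On the spleen arrays 7 of 12 member probes were called, each higher on BeadChip 1, against 0.204% of all probes called (56 of 27474). H2-Ab1 ILMN_1226525 averaged 8.29 on BeadChip 1, 5.56 on BeadChip 2 and 4.72 on BeadChip 3 in spleen, a difference of 3.15 ± 0.19 (SE; limma adjusted p = 2.58e-05), and ranked 5 by p among all probes. Probe ILMN_2913716 differed by 2.34 ± 0.14 (limma adjusted p = 2.55e-05), ILMN_2631423 by 2.02 ± 0.28 (0.0163), H2-Aa by 2.37 ± 0.23 (0.00125) , H2-Eb1 by 1.77 ± 0.19 (0.00268) and Cd74 ILMN_1221817 by 2.68 ± 0.40 (0.0286). The Cd74 call was lost in 12 of 26 alternatives. The other called probe, Blk ILMN_2976441 (limma adjusted p = 0.0376), passed the detection filter only through the 3 spleen arrays of BeadChip 1. Their mean lay at least 1.85-fold above that of the other 6 spleen arrays. For this, each undetected value was set no lower than the lowest detected level of its array. The Blk call was lost in 24 of 25 alternatives. The other 2 Cd74 probes were higher by 2.54 ± 0.48 and 0.92 ± 0.17 and did not pass (limma adjusted p = 0.0993 and 0.0965).

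On the tumour arrays the same contrast called 1 of 12 member probes, H2-Ab1 ILMN_2913716, which averaged 7.00 on BeadChip 1 and 6.19 and 5.98 on BeadChips 2 and 3 (0.91 ± 0.14, SE; limma adjusted p = 0.048; 0.0728% of all probes), a call that held in 1 of 26 alternatives. All 8 class II probes were higher on BeadChip 1 in tumour too, with a median difference of 0.88, against 2.35 in spleen. The difference between the tissues was itself tested, again with arrays of different cell types as the replicates of a BeadChip. Its p-values do not measure spread between BeadChips or preparations. BeadChip 1 was raised less in tumour than in spleen for H2-Ab1 ILMN_1226525, by -2.12 ± 0.27 (SE; limma adjusted p = 0.0215), and for ILMN_2913716, by -1.42 ± 0.19 (limma adjusted p = 0.0261), 2 of 12 member probes against 0.0655% of all probes. These calls held in 10 and in 4 of 26 alternatives, and neither held without BeadChip 2 or without BeadChip 3. Over all 18 arrays together, with group as a term, 4 of 12 member probes passed (0.0437% of all probes), and H2-Aa, higher on BeadChip 1 by 1.89 ± 0.20 (SE; limma adjusted p = 0.0144), had the smallest p of the 27474 probes.

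**Figure D3:**
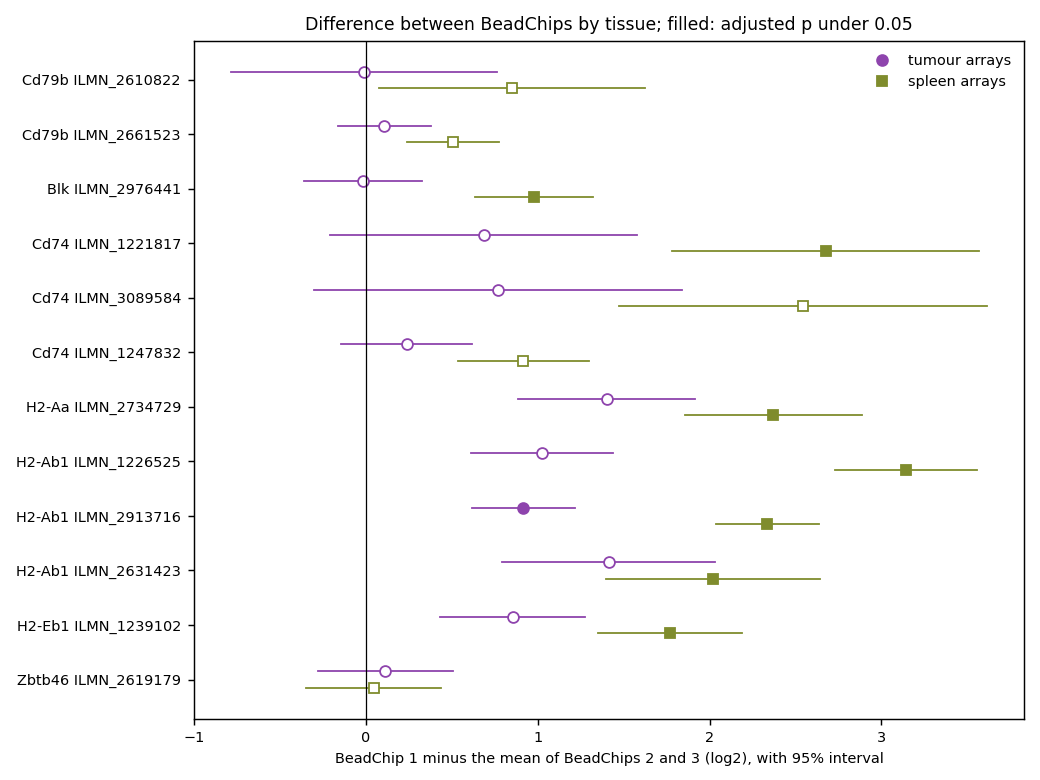
BeadChip 1 minus the mean of BeadChips 2 and 3 (horizontal axis, log2) for the 12 tested probes (rows) on the 9 tumour arrays (circles) and the 9 spleen arrays (squares), with 95% intervals; filled symbols passed an adjusted p of 0.05. Class II probes lie between 0.24 and 1.41 in tumour and between 0.92 and 3.15 in spleen, and Zbtb46 lies near 0 in both.

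A limma F test among the 3 BeadChips, which singles out none of them, called fewer members. On the 9 spleen arrays it called H2-Aa and H2-Ab1 ILMN_1226525 and ILMN_2913716 (limma F test, adjusted p = 0.019 for each), 3 of 12 member probes against 0.0473% of all probes. On the 9 tumour arrays the limma F test called 0 of 12, and 0% of all probes, while 5 of 12 had an unadjusted p under 0.05, all of them probes of H2-Aa, H2-Ab1 and H2-Eb1. Mean signals on BeadChip 1 (121 to 149) overlapped those of BeadChip 2 (117 to 135) and BeadChip 3 (137 to 156).

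Other genes were higher on the spleen arrays of BeadChip 1 along with class II, and those named here were chosen after their values were seen. The other 49 called probes included haemoglobin and red cell genes such as Slc4a1, the anion exchanger of red cells (3.42 ± 0.19, SE), Alas2, the first enzyme of haem synthesis in red cell precursors (1.99 ± 0.20), and 4 probes of Hbb-b1. These 4 were also called on the tumour arrays of BeadChip 1, with larger differences there (ILMN_1239117 2.71 ± 0.21 in tumour and 1.51 ± 0.21 in spleen). Slc4a1 and Alas2 were not called on the tumour arrays. They included the macrophage genes Lyz1 (2.65 ± 0.24), Lyz2 (2.05 ± 0.29), C1qc (1.34 ± 0.21) and Slc40a1, the iron exporter (2.46 ± 0.34). Ly6d, a B lineage surface protein, on probe ILMN_2803920 (1.21 ± 0.11), and Igl-V1, an immunoglobulin light chain segment (2.95 ± 0.27 and 2.13 ± 0.19 on 2 probes), were also called. Another Ly6d probe, ILMN_2803921, stood for this gene in the B cell list and was not called. The macrophage and monocyte list averaged 5.58 to 5.69 on the 3 spleen arrays of BeadChip 1 and 4.39 to 4.74 on the 6 others, with 3 of 15 tested genes higher and 0 lower. The B cell list averaged 5.72 to 5.77 on those 3 arrays and 5.09 to 5.42 on the 6 others, with 12 of 14 differences positive (median 0.55), 8 at an unadjusted p under 0.05 and 0 called in limma. Of 10 dendritic cell genes tested, Fscn1, an actin bundling protein of mature dendritic cells, was higher by 1.70 ± 0.22 (SE; limma adjusted p = 0.0089). The T cell list stayed within 8.74 and 9.15 on all 18 arrays. The part of such cells in the class II levels was not tested, and in sorted bulk samples more cells of a type and more RNA per cell cannot be told apart.

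**Figure D4:**
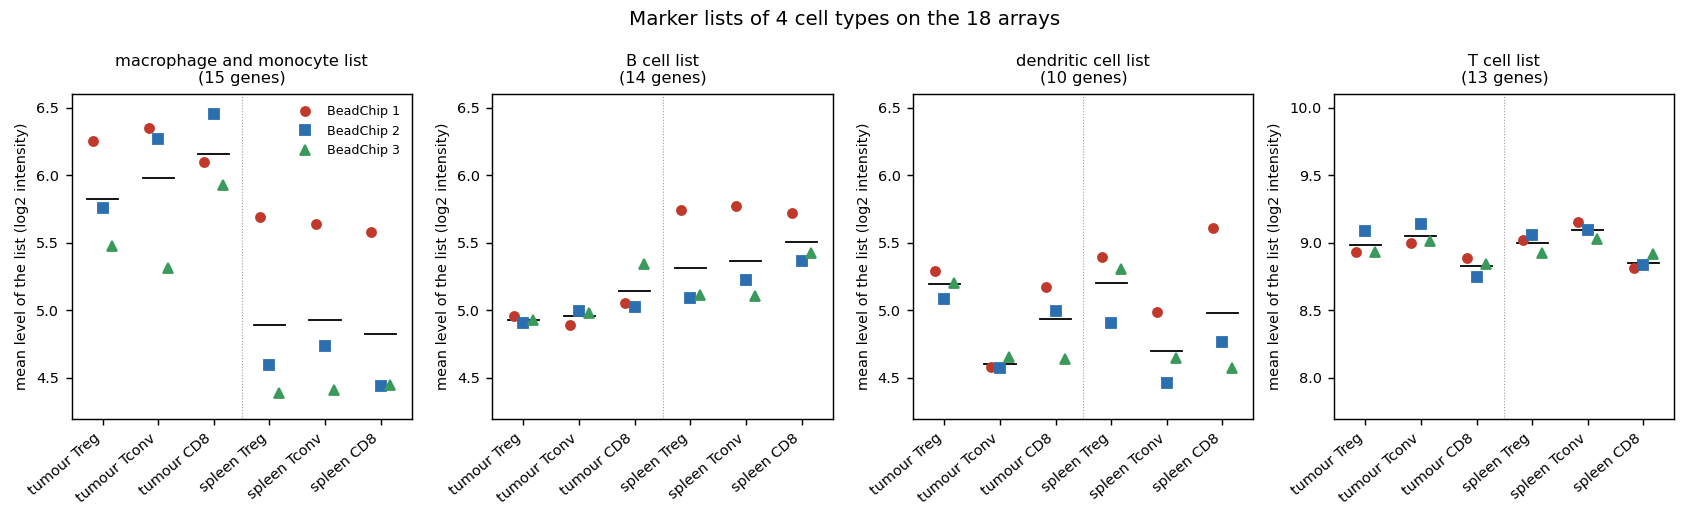
Mean log2 intensity of the tested genes of 4 marker lists (vertical axis, with the same span in each panel) in the 6 groups, with 1 point per array by BeadChip and a line at the group mean. On the spleen arrays BeadChip 1 stands above BeadChips 2 and 3 for the macrophage and the B cell list, while the T cell list stays between 8.74 and 9.15.

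Both tested Cd79b probes had lower means in tumour than in spleen averaged over the cell types, and 1 passed the test. The tested Blk probe was lower in tumour too, but it passed the detection filter only through the spleen arrays of BeadChip 1. Nothing is read from its sign, and without BeadChip 1 its difference was 0.006. Cd79b, a B cell receptor chain, had on probe ILMN_2610822 log2 levels on BeadChips 1, 2 and 3 of 5.92, 5.73 and 5.39 in tumour Treg, 4.29, 4.21 and 4.44 in tumour Tconv and 4.48, 4.24 and 5.43 in tumour CD8 cells. In spleen the probe had 7.72, 6.22 and 6.82 in spleen Treg, 6.28, 5.82 and 4.36 in spleen Tconv and 6.88, 6.55 and 6.89 in spleen CD8 cells. Tumour Treg lay below spleen Treg and tumour CD8 below spleen CD8 cells on every array, whereas Tconv overlapped, since spleen Tconv was low on BeadChip 3. Averaged over the 3 cell types the level was 4.90 in tumour and 6.39 in spleen, a difference of -1.49 ± 0.26 (SE; limma adjusted p = 0.00247), negative on all 3 BeadChips. Without BeadChip 1 it was -1.20 ± 0.29 and did not pass (limma adjusted p = 0.0765), nor did it without BeadChip 2 (adjusted p = 0.0814). In CD8 cells the difference was -2.06 ± 0.44 (SE; limma adjusted p = 0.042), with 4.71 ± 0.63 in tumour CD8 and 6.77 ± 0.19 in spleen CD8 cells (SD, n = 3 each). That call was lost in 13 of 17 alternatives, median scaling among them (adjusted p = 0.023 to 0.321 over the alternatives).

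Levels of Cd79b on probe ILMN_2610822 followed the order spleen Treg, spleen CD8, tumour Treg, spleen Tconv, tumour CD8 and tumour Tconv. Of these neighbours only spleen CD8 and tumour Treg did not overlap. Within tissues, Treg exceeded Tconv on this probe by 1.37 ± 0.44 in tumour (SE; limma adjusted p = 0.165) and by 1.44 ± 0.44 in spleen (limma adjusted p = 0.206), neither past the test. The other tested Cd79b probe, ILMN_2661523, had 4.27, 4.14 and 4.37 in tumour Treg, 4.21, 4.11 and 4.08 in tumour Tconv and 4.47, 4.41 and 4.13 in tumour CD8 cells. In spleen it had 4.64, 4.14 and 4.54 in spleen Treg, 4.73, 4.16 and 4.10 in spleen Tconv and 5.07, 4.38 and 4.54 in spleen CD8 cells. Its order was spleen CD8, spleen Treg, tumour CD8, spleen Tconv, tumour Treg and tumour Tconv, and all neighbours overlapped. It was detected on 8 of 18 arrays and differed by -0.23 ± 0.12 between tumour and spleen (SE; limma adjusted p = 0.373), so the 2 probes of this gene did not give the same call.

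Blk, the B lineage kinase, was detected with probe ILMN_2976441 on the 3 spleen arrays of BeadChip 1 alone. Its levels were 4.14, 4.08 and 4.08 in tumour Treg, 4.11, 4.16 and 4.12 in tumour Tconv and 4.15, 4.32 and 4.14 in tumour CD8 cells. In spleen they were 4.85, 4.13 and 4.09 in spleen Treg, 4.79, 4.07 and 4.25 in spleen Tconv and 5.72, 4.08 and 4.24 in spleen CD8 cells. The 3 detected values are the first of each spleen group, and the remaining 15 arrays were not detected. The other 2 Blk probes ran from 4.04 to 4.36 and the Ms4a1 probe, for CD20, from 4.07 to 4.27, and none of the 3 was detected on any array. Of the other 24 B cell genes listed, 14 were tested, and 2 passed for tumour against spleen averaged over the cell types. Both were lower: Pou2af1, a B cell coactivator, by -1.55 ± 0.35 (SE; limma adjusted p = 0.017), and H2-Ob, a modulator of peptide loading in B cells, by -0.95 ± 0.20 (limma adjusted p = 0.0103). Neither passed without BeadChip 1. Pax5, Bank1, Blnk, Siglecg, Fcrla and Ciita fell short of the detection filter.

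Zbtb46, the transcription factor of classical dendritic cells, was detected in tumour Treg and in no other group. Probe ILMN_2619179 had 5.23, 4.54 and 5.67 in tumour Treg, 4.19, 4.08 and 4.08 in tumour Tconv and 4.35, 4.34 and 4.16 in tumour CD8 cells. In spleen it had 4.23, 4.18 and 4.06 in spleen Treg, 4.06, 4.08 and 4.15 in spleen Tconv and 4.24, 4.10 and 4.19 in spleen CD8 cells. The 3 tumour Treg arrays were above all 15 others, by the least on BeadChip 2. The probe passed the filter of 3 detected arrays only through these, so it entered the fit because tumour Treg was high, and the calls below, which also held with no filter, are given with that limit. The mean was 5.15 ± 0.57 in tumour Treg and 4.16 ± 0.08 in spleen Treg (SD, n = 3 each), a difference of 0.99 ± 0.20 (SE; limma adjusted p = 0.014). It was also higher than in tumour Tconv, 1.03 ± 0.20 (limma adjusted p = 0.0101), and than in tumour CD8 cells, 0.86 ± 0.20 (limma adjusted p = 0.0234). With each undetected value set no lower than the lowest detected level of its array, tumour Treg exceeded spleen Treg at least 1.91-fold, tumour Tconv at least 1.88-fold and tumour CD8 cells at least 1.78-fold. None of the 3 calls held without BeadChip 1 (adjusted p = 0.233 to 0.27), with differences of 0.98 over spleen Treg, 1.03 over tumour Tconv and 0.86 over tumour CD8 cells. None held without BeadChip 3 either, with smaller differences of 0.68, 0.75 and 0.54 in the same order (adjusted p = 0.346, 0.242 and 0.421), or with only the arrays compared (adjusted p = 0.185, 0.208 and 0.27). The difference of differences did not pass for Treg minus Tconv (0.97; limma adjusted p = 0.359) or for Treg minus CD8 (0.88; limma adjusted p = 0.343).

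**Figure D5:**
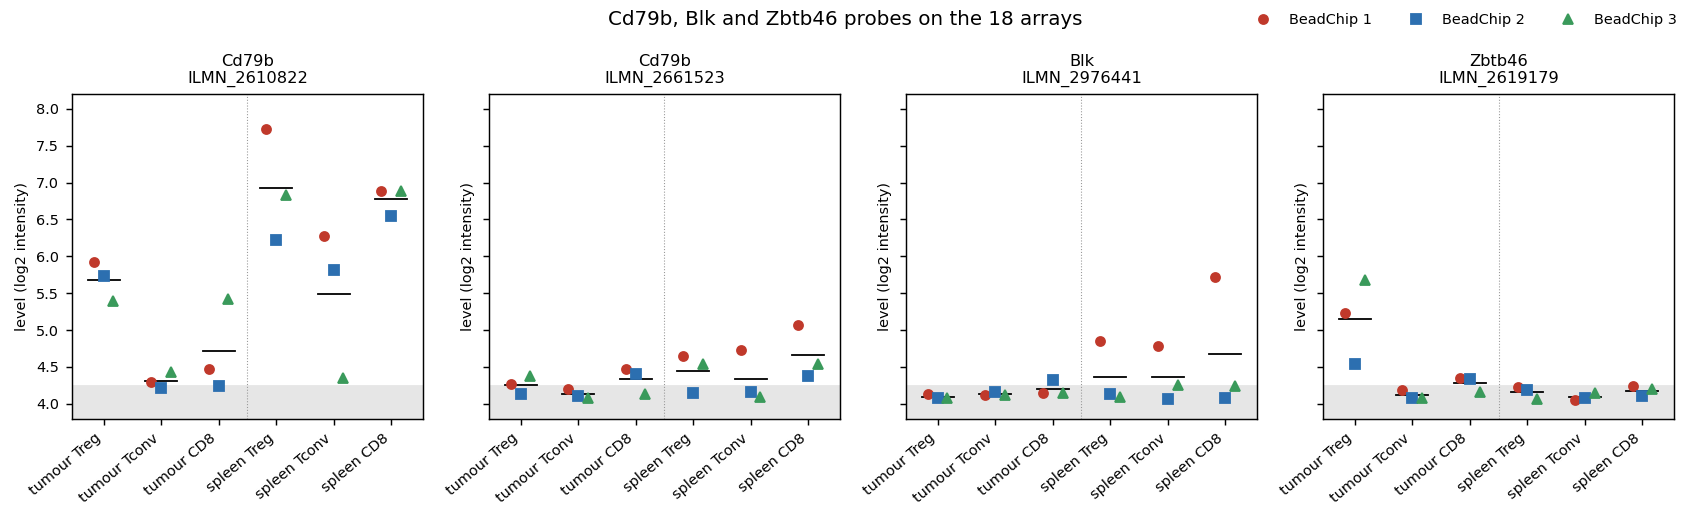
Log2 intensity (vertical axis) of both tested Cd79b probes, of the tested Blk probe and of the Zbtb46 probe in the 6 groups, with 1 point per array by BeadChip and a line at the group mean; the grey band ends at 4.25. Cd79b ILMN_2610822 is highest in spleen Treg and spleen CD8 cells, Blk was detected on the spleen arrays of BeadChip 1 alone, and Zbtb46 on the 3 tumour Treg arrays alone.

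Dendritic cell markers other than Zbtb46 were read beside it. Of 15 listed genes 10 were tested, and 2 were higher in tumour Treg than in tumour Tconv: Cd83, a surface protein of activated dendritic cells, by 2.41 ± 0.34 (SE; limma adjusted p = 0.000834), and Irf8, a transcription factor of dendritic cells and B cells, by 2.38 ± 0.46 (limma adjusted p = 0.0102). The list as a whole went both ways: 6 of 10 genes were higher in tumour Treg than in tumour Tconv (median 0.05), 4 of 10 than in tumour CD8 cells (median -0.13) and 3 of 10 than in spleen Treg (median -0.12). Both named genes also passed against tumour CD8 cells, Cd83 by 1.54 ± 0.34 (limma adjusted p = 0.0181) and Irf8 by 2.00 ± 0.46 (limma adjusted p = 0.0236). Cd83 was higher in spleen Treg than in spleen Tconv as well, by 3.23 ± 0.34 (limma adjusted p = 8.2e-05), where Zbtb46 was not detected. Clec9a, Kmo, Cd209a, Ccl22 and Ccl17 fell short of the detection filter. The dendritic cell list averaged 5.09 to 5.29 in tumour Treg, 4.57 to 4.65 in tumour Tconv and 4.64 to 5.18 in tumour CD8 cells. In spleen, where Zbtb46 was not detected, it averaged 4.90 to 5.40 in Treg, 4.47 to 4.99 in Tconv and 4.57 to 5.61 in CD8 cells, overlapping tumour Treg in Treg and CD8 cells, and its part in the Zbtb46 and class II levels was not tested.

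Genes of the class II loading pathway that are not members gave 1 call in the comparisons below. Of 14 listed genes 13 were tested, and none passed in limma between tumour Treg and spleen Treg (median 0.01; 3 at an unadjusted p under 0.05), tumour Tconv (0.05; 0) or tumour CD8 cells (0.03; 1). H2-Ob was the 1 that passed for tumour against spleen averaged over the cell types. Of 4 plasma cell genes tested, Xbp1, a secretory transcription factor, was higher in tumour in that comparison by 0.54 ± 0.13 (SE; limma adjusted p = 0.0354), and 3 of 6 melanocyte genes were higher in tumour, Pmel by 1.75 ± 0.31 (limma adjusted p = 0.00353). Macrophage and monocyte genes were higher for 7 of 15, among them Lyz2, a lysozyme, by 2.91 ± 0.45 (limma adjusted p = 0.00105), and their part in any member's level was not tested. For the class II loading pathway the median difference of BeadChip 1 on the spleen arrays was 0.12, with 0 called in limma and 3 at an unadjusted p under 0.05, beside a median of 2.35 for the 8 class II member probes. These medians are of unlike sets, since the list has 1 probe for each gene and the 8 member probes are of 4 genes. Some genes of the list, H2-DMb1 and Rfx5 among them, also had group means close to background.

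The members' patterns over the 18 arrays, which share groups and BeadChips, were compared by Pearson's r as a description. Pairs of class II probes had r of 0.67 to 0.95 (median 0.77 over 28 pairs), class II with B cell probes a median of 0.41 (24 pairs), and Zbtb46 with the other 11 probes a median of 0.30. The probe most like Cd74 ILMN_1221817 among those tested was the second Cd74 probe. The genes outside the members most like it were Slc25a20 (r = 0.83), Adamdec1, Psmd13, H2-DMb2, 3230401M21Rik, Hnrnpc, Dis3l and Irf8. For Cd79b ILMN_2610822 they were Cpt1b (r = 0.81), Srm, Eno3, Cotl1, Vstm4, Yeats4, Hsd3b7 and Fam117b, and the other Cd79b probe ranked 206 of 27472. With median scaling 4 of the genes named for Cd74 and 6 of those named for Cd79b stayed on these lists. Slc25a20 was not among them.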

How the data were processed

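Expression was measured on 18 Illumina BeadChip arrays (6 groups of 3). RNA (2.5 ng a sample) was amplified with NuGEN Ovation Pico WTA, per the labels' protocols. The deposited table holds a bead intensity and a detection p-value for each of 46237 probes and array, not normalized. The authors' deposited normalized intensity table served as an alternative, and its normalization method was not given by the labels. Gene names came from the platform table, updated for 28620 probes by Entrez number and 2637 by accession, and 4527 were kept. Signals were background-corrected with neqc (background inferred from detection p-values, offset 16), quantile normalized and put on the log2 scale in limma 3.58.1 (R 4.3.3). The 27474 probes detected (p under 0.05) on at least 3 arrays were fitted with a mean for each group (12 residual degrees of freedom), and p-values of 13 comparisons were adjusted by Benjamini-Hochberg over all of them. A probe was called at an adjusted p under 0.05.

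The members, marker lists and tests were chosen with earlier results of these data known. All member probes are named, and marker genes are named where called. The 4 BeadChip comparisons and the F test were added after the values were seen. The labels tie replicate numbers to BeadChips: residuals of arrays on the same BeadChip correlated with a mean r of 0.0423 (45 pairs) and on different BeadChips -0.0209 (90 pairs). The number of arrays limits precision. Bead error within an array was 1.58 to 5.52% of the signal for detected member values. The fit was tested on simulated data. Alternatives changed the scaling, background, filter, prior, block and arrays used.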

Additional observations from a re-analysis of the deposited data

Results flagged for a closer look

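The rise on BeadChip 1 differed between tissues for 2 H2-Ab1 probes, by a test of the difference itself that was added after the values were seen. For ILMN_1226525 BeadChip 1 exceeded BeadChips 2 and 3 by 1.02 ± 0.19 on the tumour arrays and by 3.15 ± 0.19 on the spleen arrays (SE), a difference of -2.12 ± 0.27 (limma adjusted p = 0.0215). For ILMN_2913716 it exceeded them by 0.91 ± 0.14 on the tumour arrays and by 2.34 ± 0.14 on the spleen arrays, a difference of -1.42 ± 0.19 (limma adjusted p = 0.0261). Each BeadChip carried 1 array of every group, and a BeadChip and a replicate preparation cannot be told apart. Arrays of different cell types served as the replicates of a BeadChip. These p-values therefore measure spread between arrays, not between BeadChips or preparations. The call held in 10 of 26 alternatives for ILMN_1226525 and in 4 of 26 for ILMN_2913716. Neither call held without BeadChip 2 or without BeadChip 3.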

How the results depend on the processing

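No called difference reversed its direction under the alternatives run. Differences that were not called did: without replicate 1 the class II median was 0.44, against -0.02 with all arrays, for tumour Tconv against spleen Tconv and 0.28, against -0.18, for tumour CD8 against spleen CD8 cells, and in the tissue average H2-Eb1 gave 0.02, against -0.28, and H2-Aa 0.28, against -0.04. Of the 13 group comparisons, the count of member probes called changed by over 1.5 times in those named here. For tumour Treg against spleen Treg it was 1, and 0 with a stricter filter (detected on at least 9 arrays) or with only the arrays compared. For tumour CD8 against spleen CD8 cells it was 1, and 0 with median scaling, no background correction, the deposited value table, no filter or only the arrays compared (19 of all probes called, against 237). For tumour Treg against tumour Tconv it was 1, 2 with median scaling (1091 of all probes, against 618) and 0 with the stricter filter. For tumour Treg against tumour CD8 cells it was 1, 2 with BeadChip as a replicate block, 2 with median scaling, and 0 with no background correction, the deposited value table, the stricter filter or only the arrays compared (418 of all probes, against 928). The replicate block changed no other call of a group comparison counted here. For BeadChip 1 against 2 and 3 on tumour arrays it was 1, and 0 with median scaling, no background correction, the deposited value table, no filter, the stricter filter, a trended robust prior or the F test. On spleen arrays it was 7, 3 with the F test and 5 to 8 with the other settings. Over all arrays it was 4, 0 with no filter (0 of all probes, against 12) and 3 to 5 with the other settings. For the difference between tissues it was 2, 1 with median scaling, the stricter filter (3 of all probes, against 18) or the trended prior, and 0 with no background correction or the deposited value table. With arrays or a replicate left out, the count ran from 0 to 1 in the 3 comparisons of tumour Treg, in CD8 cells between tissues, in the differences of Treg minus Tconv and Treg minus CD8, and for BeadChip 1 on tumour arrays; from 0 to 2 for the tissue average and the difference between tissues; from 3 to 7 on spleen arrays; and from 0 to 5 over all arrays. The cause was not tested. The stricter filter left Zbtb46 untested by its construction. Median scaling moved the median of all probes to 0.10 for tumour Treg over spleen Treg and to 0.11 over tumour Tconv. The replicate block, only the arrays compared and leaving out replicate 1 could not be fitted for the BeadChip comparisons. Members near background (Ms4a1, Blk outside the spleen arrays of BeadChip 1, Zbtb46 outside tumour Treg) have only an upper bound on their signal.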
